A study of Homo sapiens with 8 samples.

Results

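Long non-coding RNA genes whose ends lie away from protein-coding genes were examined for accessible chromatin in mitotic human cells. Of the 56752 genes of the RefSeq table on chromosomes 1 to 22 (GRCh38.p14), 8983 are lncRNA genes that have both annotated ends more than 5 kb from every protein-coding gene body. A window of 1 kb either side of each end was searched for peaks in 8 deposited peak lists, and a peak that touched either window is called an end peak here. The number of lists with an end peak, the length of the peaks and their rank by pileup (the height of stacked fragments) were recorded. By symbol, 6569 of the genes carry a LOC number, 1939 a LINC number, 64 an antisense name, 10 a divergent name and 54 the name of a microRNA or snoRNA host, which leaves 347 with other names. The rule reads gene positions and biotypes and no peak value. Gene models often lie side by side, and merging overlapping windows left 8214 loci.

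The assay was ATAC-seq, in which Tn5 transposase cuts and tags DNA that is not shielded by nucleosomes or other proteins. All 8 libraries came from hTERT RPE-1 cells, a telomerase-immortalised human epithelial line, of the genotype Plk1-/- EGFP-Plk1as. In these cells an analog-sensitive form of Polo-like kinase 1 (PLK1), a kinase of mitotic entry and spindle assembly, replaces the endogenous enzyme, and the bulky inhibitor 3MB-PP1 blocks it. Both groups were held in prometaphase with 5 µM STLC, an inhibitor of the spindle kinesin KIF11, for 16 h. Rounded cells were shaken off and kept in STLC for another 2 h with either 0.5% DMSO (4 libraries) or 10 µM 3MB-PP1 (4 libraries). Each sample had more than 95% of cells in mitosis and each reaction used 50000 cells. There was no group of parental cells given 3MB-PP1 and no interphase group, so inhibitor, kinase activity and arrest cannot be told apart beyond this contrast. Whether the 4 replicates of a group were separate cultures, and whether the line is 1 clone, is not given in the sources used here, so p-values measure the spread between these libraries only.

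Most lncRNA genes that stand apart from coding genes are transcribed at low levels from promoters with fewer CpG dinucleotides than coding promoters, and many of their starts resemble enhancers. A smaller set, such as MALAT1 and the hosts of microRNA clusters, has strong promoters that are active in nearly all dividing cells. Mitotic chromosomes are compacted and largely silent, yet many promoters are known to stay accessible to Tn5.

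The 5 promoters printed next are the ones the results return to, each spanning 250 bases before to 50 bases after the annotated start, 5′ to 3′ on the gene's strand, from RefSeq GRCh38.p14. MALAT1 (chr11:65497488-65497787, + strand) and MIR17HG (chr13:91347437-91347736, + strand) had a peak on these bases in 8 of 8 lists. PURPL (chr5:27472042-27472341, + strand) had one in each 3MB-PP1 list and in no DMSO list. The promoters of MIR17HG and PURPL were not in the planned set. LINC00885 (chr3:196142386-196142685, + strand) had the largest decrease in summed end-peak length, and LINC02212 (chr5:10502679-10502978, - strand) the largest increase. These genes had a peak on the printed bases in 4 and 7 of 8 lists. Capitals mark the motifs searched on both strands: TGANTCA (AP-1), GGAATG (TEAD), GGGCGG (GC box), CCAAT and TATAAA, where neighbouring matches may overlap.
MALAT1: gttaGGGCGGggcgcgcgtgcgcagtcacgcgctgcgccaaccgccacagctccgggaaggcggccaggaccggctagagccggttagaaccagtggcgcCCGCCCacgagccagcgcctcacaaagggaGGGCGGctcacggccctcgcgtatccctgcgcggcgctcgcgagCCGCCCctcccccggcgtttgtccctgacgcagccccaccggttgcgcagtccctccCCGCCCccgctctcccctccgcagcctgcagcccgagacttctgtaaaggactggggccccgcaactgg
MIR17HG: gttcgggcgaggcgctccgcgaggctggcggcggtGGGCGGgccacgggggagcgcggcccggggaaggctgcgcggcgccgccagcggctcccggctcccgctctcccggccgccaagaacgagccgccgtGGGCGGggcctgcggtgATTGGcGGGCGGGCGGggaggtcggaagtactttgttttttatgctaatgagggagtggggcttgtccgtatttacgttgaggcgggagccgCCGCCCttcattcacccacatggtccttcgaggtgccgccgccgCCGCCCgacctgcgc
PURPL: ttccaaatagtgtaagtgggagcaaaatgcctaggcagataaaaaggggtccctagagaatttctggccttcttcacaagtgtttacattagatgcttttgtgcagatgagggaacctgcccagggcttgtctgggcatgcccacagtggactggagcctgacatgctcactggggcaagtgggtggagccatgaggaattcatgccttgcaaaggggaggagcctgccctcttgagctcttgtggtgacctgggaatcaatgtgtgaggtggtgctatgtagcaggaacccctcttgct
LINC00885: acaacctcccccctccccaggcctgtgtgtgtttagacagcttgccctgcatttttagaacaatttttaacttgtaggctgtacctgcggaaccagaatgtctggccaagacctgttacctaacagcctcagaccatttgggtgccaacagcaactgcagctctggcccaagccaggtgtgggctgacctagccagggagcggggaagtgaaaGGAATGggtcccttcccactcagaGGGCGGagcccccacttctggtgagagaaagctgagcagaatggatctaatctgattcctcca
LINC02212: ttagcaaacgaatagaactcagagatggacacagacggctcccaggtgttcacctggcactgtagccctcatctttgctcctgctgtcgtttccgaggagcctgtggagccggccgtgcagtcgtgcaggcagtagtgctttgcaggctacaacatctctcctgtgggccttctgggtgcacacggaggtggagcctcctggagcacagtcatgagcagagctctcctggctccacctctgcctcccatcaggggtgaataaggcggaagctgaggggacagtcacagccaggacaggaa

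The MALAT1 promoter holds 37 CpG dinucleotides and 5 GC boxes, and the MIR17HG promoter 42 CpG and 6 GC boxes. PURPL has no CpG and none of the 5 motifs in its 300 bases. LINC00885 has 3 CpG, 1 GC box and 1 TEAD match, and LINC02212 has 9 CpG and no match. Among all 33725 promoters of the table on these chromosomes, 45.0% hold a GC box, 14.0% a TEAD match, 7.67% an AP-1 match, 34.4% CCAAT and 11.6% TATAAA.

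The 8 lists held between 149172 and 250548 peaks on chromosomes 1 to 22, and the 3MB-PP1 lists were on average longer (208539 ± 33293 peaks, SD, n = 4) than the DMSO lists (175076 ± 25514, n = 4), a difference within the overlap of the groups (exact permutation p = 0.143). Read depth is not in the files, so the length of a list stands beside each count below. Libraries with odd replicate numbers had 0.868% to 0.933% of their peaks on chromosome X, and those with even numbers 0.595% to 0.694%. The main treatment differences are therefore also given within the odd and within the even replicates, although the labels name no batch. The epithelial genes KRT8 and KRT18, the cadherin gene CDH2 and the pigment epithelium factors MITF and OTX2 had end peaks in 8 lists. The visual-cycle gene RPE65 had none, BEST1 had them in 2 and RLBP1 in 5. Of the genes that mark other tissues, PTPRC, ALB and GFAP had none, INS had them in 2 lists and CD3E in 8.

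In how many libraries an end was open separated these lncRNA genes from coding genes. These are bulk libraries, in which an end open in few cells and an end weakly open in all cells cannot be told apart. No list had an end peak at 2443 of the 8983 genes (27.2%), exactly 1 list had one at 1173 genes, and all 8 lists had one at 1178 genes (13.1%). Among the 8812 lncRNA genes with an end nearer to a coding gene, 36.9% had end peaks in 8 lists, and among the 19122 protein-coding genes 61.0%. At the 5 kb limit itself, 16.1% of the 211 lncRNA genes at 4 to 5 kb and 17.2% of the 186 at 5 to 6 kb had end peaks in 8 lists.

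**Figure D1:**
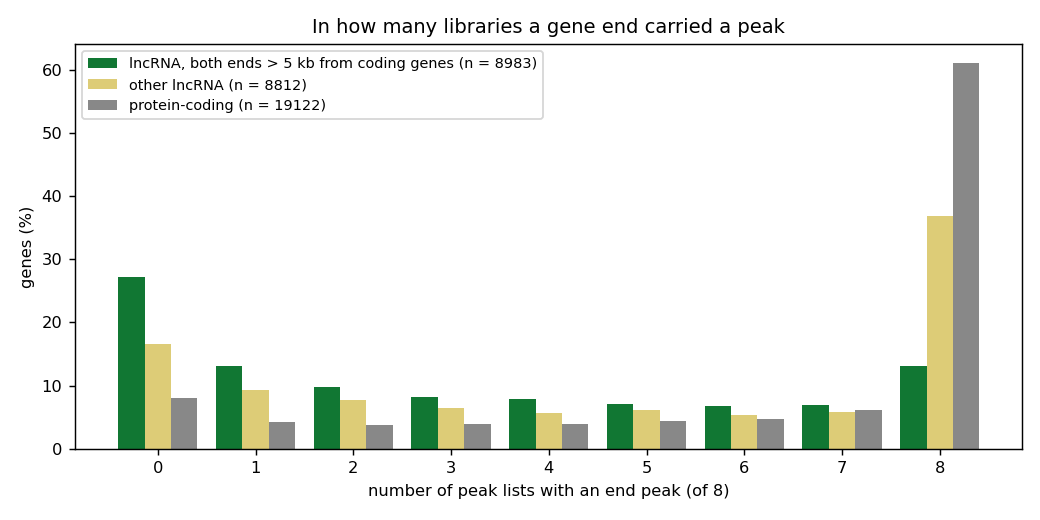
Percentage of genes (vertical axis) by the number of the 8 peak lists in which either end carried a peak (horizontal axis), for lncRNA genes with both ends over 5 kb from coding genes (green), other lncRNA genes (yellow) and protein-coding genes (grey). The first set is highest at 0 lists (27.2%), the coding genes at 8 lists (61.0%).

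Per list, an end of these lncRNA genes was open less often than a coding end and more often than other DNA of the same territory. On average over the 8 lists, 24.0% of the 17966 lncRNA ends had a peak, against 46.4% of coding ends and 35.9% of ends of the other lncRNA genes. The comparison with open territory used 728775 tiles of 2 kb, all more than 5 kb from coding genes and outside the end windows, of which 13.0% held a peak. Centromeres and assembly gaps were not taken out of the tiles. Gaps can hold no peak, so the tile share is a low estimate and the excess of ends over tiles a high one. The difference from coding ends was -22.4 percentage points (SD 0.714), with the lncRNA ends lower in 8 of 8 lists, and that from the tiles was 10.9 (SD 1.10), with the lncRNA ends higher in 8 of 8 lists. Each had an exact sign-flip permutation p of 0.00781 (two-sided), the smallest that 8 lists can give. All 8 lists shared a peak at 6.34% of single lncRNA ends, at 31.7% of coding ends and at 2.01% of the tiles.

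The start was the more accessible end. Strand was known for 5288 of the 8983 genes, and in the 4032 of these whose ends lie over 4 kb apart, 30.5% of starts and 17.4% of the opposite ends had a peak, averaged over the 8 lists. Starts were higher in 8 of 8 lists, by 13.2 percentage points (SD 0.966, exact sign-flip permutation p = 0.00781). Of the 1178 genes with end peaks in 8 lists, 95 had both ends open in every list, 949 had 1 such end, and 134 reached 8 lists only with peaks at different ends. Among the 4032 genes, 419 had the start alone open in 8 lists and 97 the opposite end alone. Another 16 had both ends open in 8 lists. At the start position itself, 13.2% of the 5288 lncRNA starts were covered in DMSO and 11.9% in 3MB-PP1, against 60.8% and 59.3% of 15100 coding starts.

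**Figure D2:**
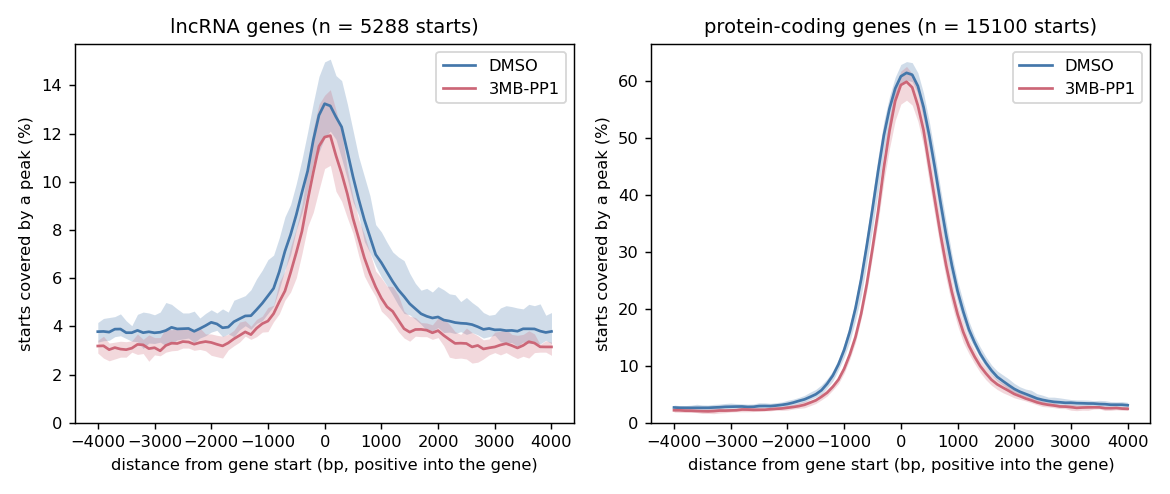
Percentage of gene starts covered by a peak (vertical axis, separate scales) against the distance from the start in bp (horizontal axis, positive into the gene), for 5288 lncRNA starts (left) and 15100 protein-coding starts (right). Lines are means of 4 DMSO (blue) and 4 3MB-PP1 (red) libraries and bands their lowest to highest values. Both gene sets peak at the start, the lncRNA genes at 13.2% in DMSO and 11.9% in 3MB-PP1.

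Accessibility of the ends went down with distance from coding genes, and so did that of the tiles. Ends 5 to 20 kb from the nearest coding gene body had a peak in 29.5% of cases (tiles 20.5%), ends at 20 to 100 kb in 28.3% (tiles 18.7%), ends at 100 to 500 kb in 20.4% (tiles 12.4%) and ends beyond 500 kb in 11.4% (tiles 3.91%). In each of the 4 distance ranges the ends exceeded the tiles in 8 of 8 lists (exact sign-flip permutation p = 0.00781 each, also after Benjamini-Hochberg adjustment over the 4 ranges). As a ratio, ends stood 1.44 times above tiles at 5 to 20 kb and 2.93 times beyond 500 kb, where the tiles also include centromeres and assembly gaps. Chromosomes 12 and 10 had the highest shares of ends and of tiles with a peak. Chromosome 20 came next, with 31.25% of ends and 19.2% of tiles, against 32.3% and 23.4% on chromosome 10. On chromosomes 10 and 12 together, 34.5% of ends and 24.7% of tiles had a peak. The other chromosomes, chromosome 20 included, had 22.8% and 11.96%. The excess of ends over tiles was 9.86 percentage points on chromosomes 10 and 12 and 10.9 on the rest.

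**Figure D3:**
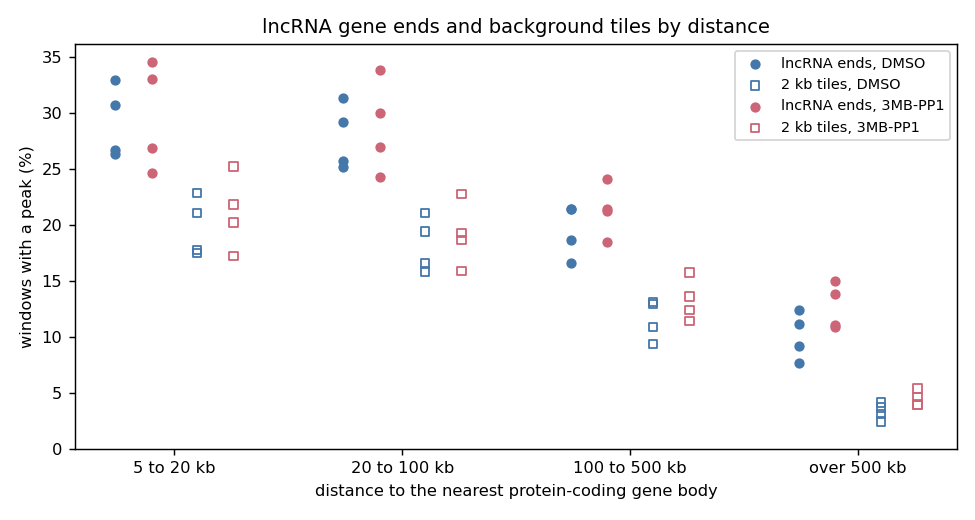
Percentage of windows with a peak (vertical axis) by distance to the nearest protein-coding gene body (horizontal axis), one point per library. Filled circles are lncRNA ends and open squares the 2 kb tiles, with DMSO in blue and 3MB-PP1 in red. Ends lie above tiles in every range, at 29.5% against 20.5% nearest to coding genes and 11.4% against 3.91% farthest away.

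CpG content of the start went with how many libraries showed a peak there. A promoter sequence at the annotated start was held in RefSeq for 5077 of the genes. Starts open in 0, 1 to 3, 4 to 7 and 8 lists had a median GC content of 40.3%, 46.3%, 50.7% and 56.0%. The share of CpG-rich promoters (observed over expected CpG of at least 0.6) was 4.10%, 7.90%, 14.3% and 35.4% in the same order, against 67.0% of all coding promoters. GC boxes went from 5.28% to 33.7% between 0 and 8 lists, while TATAAA went from 27.1% to 10.8%, and AP-1 matches stood at 13.3% and 15.0%. These promoters share base composition with the motifs counted, so the shares are descriptions.

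The 550 CpG-rich lncRNA starts were open in 54.4%, 52.9%, 59.3% and 60.9% of cases in DMSO replicates 1 to 4 and in 65.8%, 61.1%, 70.2% and 58.0% in 3MB-PP1 replicates 1 to 4. The 4527 other starts had 24.7%, 25.7%, 31.6% and 29.5% in DMSO and 29.6%, 27.1%, 32.2% and 24.5% in 3MB-PP1. CpG-rich starts exceeded the others in 8 of 8 lists, by 32.2 percentage points (SD 3.92, exact sign-flip permutation p = 0.00781). They lay below CpG-rich coding starts in 8 of 8 lists, by 29.8 points (SD 3.74, exact sign-flip permutation p = 0.00781). The gap between CpG-rich and other lncRNA starts was 27.2 to 31.4 points in DMSO and 33.5 to 38.0 in 3MB-PP1, without overlap (difference 6.46, exact permutation p = 0.0286), and the difference was 8.45 in the odd and 4.47 in the even replicates. The same gap at coding starts was 42.8 points in DMSO and 43.7 in 3MB-PP1 (exact permutation p = 0.686). This comparison was among 47 treatment comparisons added after seeing the data, and its p became 0.112 after Benjamini-Hochberg adjustment over them. The difference was 5.16 points with lists of equal length (exact permutation p = 0.0857) and -3.40 with strong peaks alone, those of -log10 q no lower than 5 (exact permutation p = 0.2), so its direction turned when weak peaks were left out. Without 3MB-PP1 replicate 3 it was 5.61 points (exact permutation p = 0.0571).

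The main treatment comparison asked whether peaks at these ends differed between mitotic cells with active and with inhibited PLK1. End peaks were found at 3083, 3253, 3799 and 3727 genes in DMSO replicates 1 to 4 and at 3764, 3581, 4167 and 3207 genes in 3MB-PP1 replicates 1 to 4. The means were 3466 ± 352 (38.6% of the genes, SD, n = 4) and 3680 ± 399 (41.0%), and the groups overlapped (difference 214, exact permutation p = 0.543, 0.629 after Benjamini-Hochberg adjustment over 6 measures). The difference was 525 genes in the odd replicates and -96 in the even ones. Its sign also turned with the length of the lists. With the 149172 highest peaks of every list by pileup, the number the shortest list holds, 3083, 3131, 3113 and 3047 genes were left in DMSO and 2942, 2900, 2875 and 2954 in 3MB-PP1. At equal length fewer genes had an end peak in every 3MB-PP1 list than in every DMSO list (-176 genes, exact permutation p = 0.0286, adjusted p = 0.0429).

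The share of a list's peaks that fell at these ends was lower with 3MB-PP1. It was 2.36%, 2.37%, 2.33% and 2.24% in DMSO replicates 1 to 4 and 2.17%, 2.07%, 2.12% and 2.17% in 3MB-PP1, with no overlap (difference -0.195 percentage points, exact permutation p = 0.0286). The adjusted p over the 6 measures was 0.0571, since at least 4 of them had to reach the smallest p of this design to pass, and 3 did. The difference was -0.205 in the odd and -0.184 in the even replicates. In equal lists it was -0.109 (exact permutation p = 0.0286), and with at least 50% of a peak inside the window -0.0828 (exact permutation p = 0.0571), where the groups overlapped. Among strong peaks the share was 2.95% ± 0.0696 in DMSO and 2.61% ± 0.0763 in 3MB-PP1 (exact permutation p = 0.0286, 0.112 adjusted over the 47 added comparisons).

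Peaks at the ends were shorter with 3MB-PP1, as were peaks elsewhere. Their median length was 495, 447.5, 490 and 426 bp in DMSO replicates 1 to 4 and 314, 349.5, 324 and 380 bp in 3MB-PP1 replicates 1 to 4, so every 3MB-PP1 list lay below every DMSO list. The means were 465 ± 33.4 bp and 342 ± 29.5 bp (difference -123 bp, exact permutation p = 0.0286, adjusted 0.0571), with -173.5 bp in the odd and -72 bp in the even replicates. The median of all other peaks was 388 ± 25.2 bp in DMSO and 290 ± 24.9 bp in 3MB-PP1, and that of peaks at coding ends 1137 ± 115 bp and 832 ± 37.5 bp. End peaks of the lncRNA genes exceeded the rest of their list by 76.4 ± 12.3 bp in DMSO and by 51.6 ± 4.71 bp in 3MB-PP1 (exact permutation p = 0.0286, adjusted 0.0571), with a difference of -38 bp in the odd and -11.5 bp in the even replicates. This difference was -61.5 bp with strong peaks alone (exact permutation p = 0.114), -9.25 bp with windows of 2.5 kb (exact permutation p = 0.0857) and -7.75 bp with 50% overlap (exact permutation p = 0.143). As a ratio the same lengths were 1.20 ± 0.0272 and 1.18 ± 0.00484 times the rest (exact permutation p = 0.171). The difference in the ratio was -0.0187 with all libraries and -0.0321 without DMSO replicate 2 (exact permutation p = 0.0286). It also reached that p with windows of 500 bp and with a common smallest length, and it was 0.00633 with 50% overlap, so the relative excess varied with these choices. Among end peaks, 27.3% ± 2.25 spanned the annotated end in DMSO and 22.1% ± 1.07 in 3MB-PP1.

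The rank of these peaks did not separate the groups. The median pileup percentile of end peaks, where 100 is the highest peak of a list, was 56.3, 57.1, 56.8 and 57.7 in DMSO and 56.3, 57.8, 57.1 and 57.4 in 3MB-PP1 (exact permutation p = 0.629), with differences of 0.160 in the odd and 0.210 in the even replicates. Peaks at coding ends had medians from 89.1 to 92.5, and the distance from them was -34.8 ± 1.69 percentile points in DMSO and -33.2 ± 1.26 in 3MB-PP1 (exact permutation p = 0.2, adjusted 0.3), with differences of 1.72 in the odd and 1.46 in the even replicates.

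**Figure D4:**
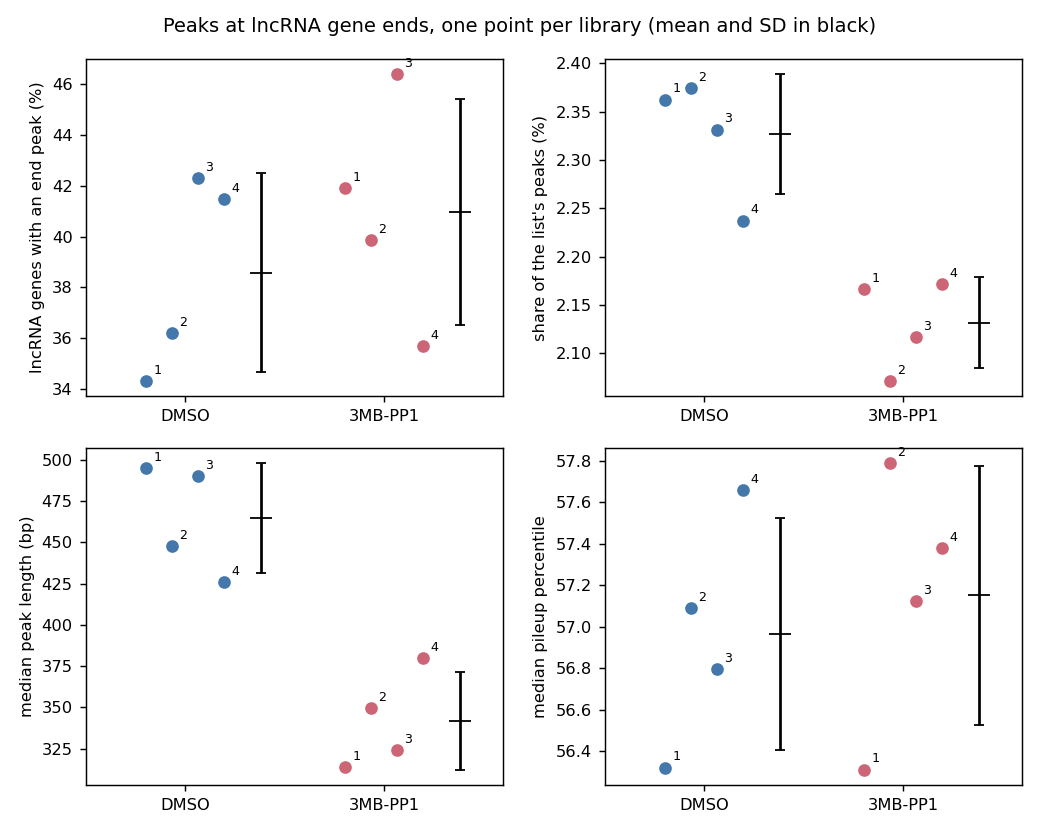
Measures of end peaks at the 8983 lncRNA genes for DMSO (blue) and 3MB-PP1 (red), one point per library numbered by replicate, with the group mean and SD in black: genes with an end peak (%), share of the list's peaks (%), median peak length (bp) and median pileup percentile. The axes do not start at 0. Share and length do not overlap between the groups, and the other measures do.

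At the 1178 genes with end peaks in every list, the summed length of a gene's end peaks was 1144.5, 1107, 1336 and 1040 bp (medians) in DMSO replicates 1 to 4 and 847, 847, 950 and 798.5 bp in 3MB-PP1. For the 11665 coding genes in 8 lists the group means were 1540 and 1324 bp. The lncRNA median was 0.750 ± 0.0531 of the coding median in DMSO and 0.650 ± 0.0299 in 3MB-PP1, without overlap (difference -0.100, exact permutation p = 0.0286, 0.112 adjusted over the 47 added comparisons). Per gene, the ratio of mean length in 3MB-PP1 to that in DMSO had a median of 0.791 over these lncRNA genes and 0.881 over the coding genes. The difference was -0.0329 with strong peaks alone and -0.0733 with windows of 2.5 kb (exact permutation p = 0.0571 for both), and without DMSO replicate 3, whose ratio was 0.829, it was -0.0731. Genes in 4 to 7 lists had medians of 489 bp in DMSO and 392 bp in 3MB-PP1 (exact permutation p = 0.0286), and genes in 1 to 3 lists 293 and 241 bp (exact permutation p = 0.0857).

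Single genes were compared by order, since no gene can pass a correction with 4 against 4 lists. The summed length adds all peaks at both ends of a gene, so it also changes when a peak is gained or lost. The summed length was lower in every 3MB-PP1 list than in every DMSO list at 141 of the 1178 genes (12%), where 11.4% of all genes with peaks in 8 lists did the same. It was higher in every 3MB-PP1 list at 8 genes (0.679%; all genes 0.282%). The best pileup percentile was lower throughout 3MB-PP1 at 38 genes (3.23%; all genes 1.73%) and higher at 22 (1.87%; all genes 3.86%). An end peak in every DMSO list and no 3MB-PP1 list was found at 14 of the 8983 genes (0.156%; all genes 0.0916%), and the opposite at 21 (0.234%; all genes 0.178%). With lists of equal length these counts were 26 (0.289%; all genes 0.143%) and 9 (0.1%; all genes 0.0916%). With peaks of at least 300 bp they were 29 and 6, and no share over all genes was computed for that setting. The balance between the directions was not the same in each setting. Over all genes it also moved, from 52 and 101 genes to 81 and 52 with lists of equal length. The cause was not tested.

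None of the 14 DMSO genes and 1 of the 21 3MB-PP1 genes had a strong peak. For comparison, 629 of the 8983 genes and 15 of the 711 genes with end peaks in exactly 4 lists (2.11%) had a strong end peak in some list. The lists differed in how many strong peaks they held at all. These numbered 17186, 12190, 15801 and 9768 in DMSO replicates 1 to 4 and 12052, 8471, 11146 and 6880 in 3MB-PP1 replicates 1 to 4. When strong peaks alone were counted, 13 genes had them in all DMSO lists but in none with 3MB-PP1 (0.145%; all genes 0.204%) and none showed the opposite (all genes 0). Each of these 13 still had a weaker end peak in every library given 3MB-PP1. They included LINC02863 on chromosome 5, LINC00839 on chromosome 10 and LINC02098 on chromosome 11, and these names were chosen after their values were seen.

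Of 5 genes listed for p53 and stress, NEAT1, NORAD and PVT1 had end peaks in 8 lists. All 3 had a lower mean length with 3MB-PP1, with overlapping groups, as 82.3% of the 1178 genes were lower. MIR34AHG had end peaks in 4 DMSO and 2 3MB-PP1 lists. PURPL (chr5:27472292-27496401), a p53-induced lncRNA that restrains p53 levels, was the named stress gene among the 21. Its nearest coding gene is the cadherin gene CDH9, 433706 bp away. No DMSO list had an end peak there. The 3MB-PP1 lists had start peaks of 165, 168, 309 and 249 bp at pileup percentiles 38.4, 26.4, 83.3 and 31.9. The groups did not overlap, but 3 of the 4 peaks ranked below the middle of their lists, and only 1 was a strong peak. All 4 lay on the printed promoter, which has no CpG. The other named genes of this kind were LINC02788 (chr1:90835663-90849472; 561, 904, 1015 and 155 bp in 3MB-PP1), FAM27E2 (chr9:41647674-41649440; 316, 836, 831 and 129 bp), LOC105372219 and LOC105377159. FAM27E2 belongs to a family of near-identical copies, so the place of its reads is uncertain.

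In the opposite direction, LINC02793 (chr1:25041167-25048867) had end peaks of 1183, 243, 671 and 354 bp in DMSO at percentiles 83.5, 88.9, 89.0 and 86.2, and none in 3MB-PP1. HAR1B (chr20:63095493-63102319), antisense to a gene in a human accelerated region, had 164, 679, 187 and 910 bp in DMSO and none in 3MB-PP1. For both genes the peaks lay at the end opposite to the start. LNCHR1 (chr12:94491546-94496442) had start peaks of 292, 866, 802 and 1017 bp in DMSO alone, and LOC124902527 and LOC105375792 completed the named genes.

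LINC00885 (chr3:196142636-196160890) had the largest difference in length. Its end peaks summed to 2648, 2697, 3355 and 2789 bp in DMSO and to 1120, 1026, 431 and 147 bp in 3MB-PP1. The start was open in 8 lists and the opposite end in 6. Its best percentile was 84.5 to 92.5 in DMSO and 81.9 to 90.5 in 3MB-PP1, which overlap. LINC00955 (chr4:3576869-3590985) had 3163, 2406, 1724 and 2400 bp in DMSO and 906, 917, 954 and 588 bp in 3MB-PP1. LINC02964 (chr8:125519907-125680134) had 1159 to 2699 bp in DMSO and 257 to 923 bp in 3MB-PP1. LOC105373122 and LOC105373760 completed the named genes whose summed length was lower. None of the 8 lists had a strong peak at LINC00885, LINC00955 or LINC02964.

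A higher summed length with 3MB-PP1 was found at LINC02212 (chr5:10493527-10502728), which had 1023, 413, 1029 and 782 bp in DMSO and 1195, 1283, 1869 and 1473 bp in 3MB-PP1. Both of its ends were open in 8 lists. LINC01671 (chr21:42599404-42615095) had 188 to 611 bp in DMSO and 639 to 1498 bp in 3MB-PP1, and LINC00334 (chr21:45234340-45258730) 199 to 546 bp and 568 to 1076 bp. At LINC00334 the start was open in 8 lists and the opposite end in 4. LOC124901147 and LOC100505715 were the other named genes in this direction.

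**Figure D5:**
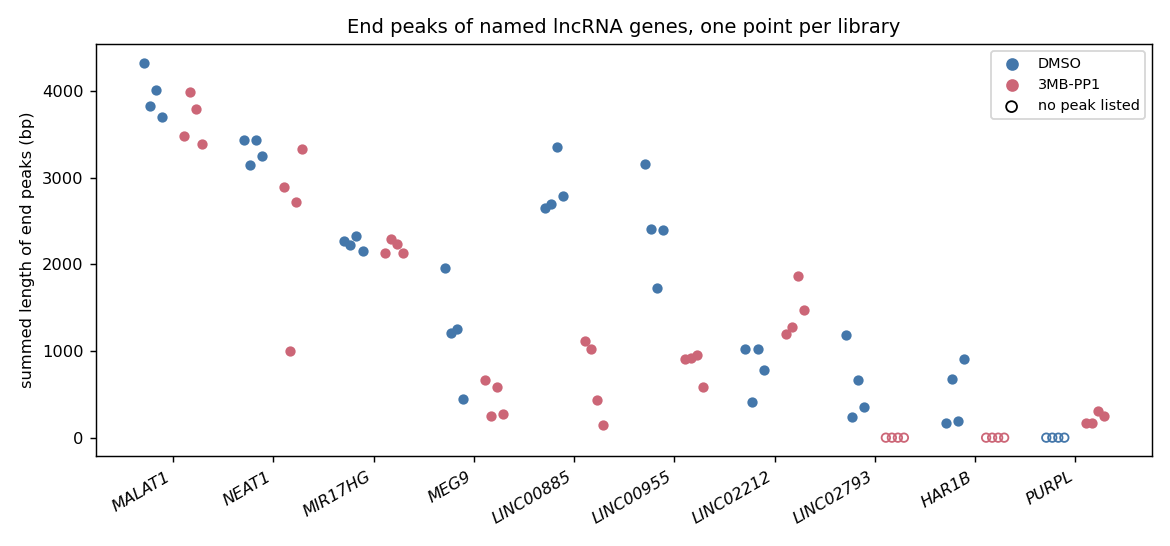
Summed length of end peaks in bp (vertical axis) for 10 lncRNA genes (horizontal axis), one point per library, DMSO in blue and 3MB-PP1 in red, with open circles at 0 where no peak was listed. LINC00885 and LINC00955 are longer in every DMSO library and LINC02212 in every 3MB-PP1 library, while LINC02793 and HAR1B have peaks in DMSO only and PURPL in 3MB-PP1 only.

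Genes with known roles were read as groups. For comparison, 13.1% of all 8983 genes had end peaks in 8 lists. The nuclear body and architectural RNAs MALAT1, NEAT1 and NORAD, 3 of 4 symbols of that list among the genes, all had end peaks in 8 lists. MALAT1 (chr11:65497738-65506516), a nuclear speckle RNA, had 4329, 3833, 4009 and 3703 bp of end peaks in DMSO and 3478, 3994, 3795 and 3391 bp in 3MB-PP1, and the groups overlapped. Both its ends were open in 8 lists, at percentiles from 97.6 to 99.1, and its antisense gene TALAM1 lies over the same DNA. NEAT1 (chr11:65422798-65445540), the scaffold of paraspeckles, had 3440, 3149, 3434 and 3256 bp in DMSO and 2896, 995, 2723 and 3336 bp in 3MB-PP1. NORAD (chr20:36045618-36050960), a damage-induced RNA that binds Pumilio proteins, had 841 to 2153 bp in DMSO and 860 to 1376 bp in 3MB-PP1.

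The imprinted genes MEG3 and MEG9, transcribed from the maternal copy of the DLK1 domain, both had end peaks in 8 lists. MEG9 (chr14:101069911-101072937) had 1961, 1213, 1255 and 451 bp in DMSO and 661, 254, 586 and 272 bp in 3MB-PP1, with DMSO replicate 4 inside the 3MB-PP1 range. MEG3 (chr14:100826108-100861026) had 632 to 3254 bp in DMSO and 518 to 2594 bp in 3MB-PP1. Of the 5 snoRNA hosts, SNHG5, SNHG26 and SNHG33 had end peaks in 8 lists. SNHG33 (chr3:183447608-183456013) had 2410, 2447, 2412 and 1984 bp in DMSO and 1508, 1012, 1182 and 736 bp in 3MB-PP1, and these groups did not overlap. SNHG5 (chr6:85677007-85678733) had 984 to 1247 bp and 945 to 984 bp.

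Among 51 microRNA hosts, 15 had end peaks in 8 lists, 32 in 1 to 7 and 4 in none (MIR217HG, MIR3171HG, MIR548XHG and MIR924HG). Mean length was lower with 3MB-PP1 at 82.3% of the 1178 lncRNA genes and at 83.1% of all genes in 8 lists. Of the hosts in 8 lists, 13 had a lower mean length with 3MB-PP1 and 2 a higher one. Their median ratio was 0.837 (lowest 0.513, highest 1.02), with overlapping groups at each of the 15. The ratio was lowest at MIR99AHG (chr21:16070488-16631727), with 1000 ± 356 bp in DMSO and 513 ± 98.0 bp in 3MB-PP1. MIR181A1HG (chr1:198808003-198937429) had 1502 ± 780 bp and 821 ± 404 bp. Other hosts had nearly the same length in both groups. MIR17HG (chr13:91347687-91354577), host of a growth-promoting microRNA cluster, had 2270, 2220, 2330 and 2159 bp in DMSO and 2131, 2293, 2237 and 2129 bp in 3MB-PP1. MIRLET7A1HG (chr9:94166258-94200905), host of let-7 microRNAs, had 1509 to 1557 bp and 1482 to 1650 bp at percentiles of at least 99.5. MIR31HG (chr9:21454268-21559798) had 1517 to 1633 bp and 1438 to 1886 bp. MIR34AHG (chr1:9148011-9182338), host of the p53-induced miR-34a, had start peaks of 1261, 401, 868 and 125 bp in DMSO and of 800 and 997 bp in 3MB-PP1 replicates 1 and 3, with none listed in replicates 2 and 4. MIR155HG and DLEU2 had end peaks in 8 lists.

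Of 15 genes listed for roles in proliferation and cancer, 10 had end peaks in 8 lists, 4 in 1 to 7 and 1, CCAT1, in none. Mean length was lower with 3MB-PP1 at 7 of the 10 and higher at 3, with overlapping groups at each. It was lower at 82.3% of the 1178 lncRNA genes in 8 lists. LINC00941 (chr12:30795681-30802711) ranked highest of the 15, at percentiles from 99.4 to 99.6, with 1721 to 2209 bp in DMSO and 1599 to 2244 bp in 3MB-PP1. CYTOR (chr2:87455427-87521518) had 284 to 723 bp and 259 to 663 bp, and DANCR (chr4:52712394-52720697) 1067 to 1517 bp and 985 to 1608 bp. Of 8 genes known from other tissues, 1 had end peaks in 8 lists, the liver gene LINC01093 (chr4:184893000-184899461), with 465 to 1701 bp in DMSO and 210 to 583 bp in 3MB-PP1. The pluripotency RNA LINC-ROR and SOX2-OT, which contains SOX2, had none. FAM99A had end peaks in 7 lists, MIR122HG in 6, the neural RNA RMST in 5, and BCAR4 and the liver RNA HULC in 4. Among all 8983 genes the share in 8 lists was 13.1%.

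Of the 8 genes with the highest pileup at their ends, 7 had another annotated gene at the peak, and OLMALINC did not. LINC02449 (chr12:8235415-8242564) and its neighbour LOC112268090 shared a peak at mean percentile 99.99 in both groups, which lies over the pseudogene FAM86FP. LINC03014 and LINC03015 (chr7:144444-149438) are divergent neighbours that shared a peak at 99.98 in both groups. LOC105374358 lies over FAM86EP, and FAM85B over FAM86B3P. The peak of LINC02453 (chr12:98485544-98503855) lies over the tRNA genes TRD-GTC1-1 and TRW-CCA4-1. OLMALINC (chr10:100373576-100388354), 8750 bp from the desaturase gene SCD, had its peaks at the start, of 1447 to 1769 bp in DMSO and 1414 to 1472 bp in 3MB-PP1. How reads that match several copies were treated is not given in the sources used here, so the position of the pseudogene peaks is uncertain.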

How the data were processed

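ATAC-seq peak lists of 8 libraries of 1 cell line were used, 4 given DMSO and 4 given 3MB-PP1, grouped by the treatment named in the labels. Each deposited list gives a peak's position, length, pileup (a coverage signal), -log10 p-value, fold enrichment (a ratio over background) and -log10 q-value, as the authors' peak caller wrote them for each library. The submitters' processing notes name MACS2, DESeq2 and hg38, with no role for each. The aligner, read filters, Tn5 shift and caller settings are not given in the sources used here. The weakest peak in any list had a deposited -log10 q of 1.00. Read depth is unknown, so no interval that needs it is given.

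Gene positions and biotypes came from the RefSeq GRCh38.p14 table, and strand and promoters from the RefSeq promoter table, which held 5288 of the 8983 genes. Peaks were joined to windows of 1 kb either side of both ends by any overlap, with Python 3.11.15, numpy 2.4.6, pandas 2.3.3 and scipy 1.17.1. The overlap and distance steps gave the same 3894 overlaps as bedtools 2.31.1. Pileup was used only as a percentile within a list. A peak near several genes counted for each, and 4.62% to 5.55% of end peaks touched more than 1.

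Treatment was tested per list with an exact two-sided permutation test over the 70 assignments (smallest p 0.0286), adjusted by Benjamini-Hochberg over 6 measures. Differences within lists were tested by exact sign flips over 8 lists, adjusted over 4 comparisons (each adjusted p = 0.00781). Another 47 treatment comparisons were added after seeing the data and adjusted together. Alternatives were peak thresholds, lists of equal length, window and distance sizes, merged loci, replicates left out and a replicate block. At most 0.0336% of a list's peaks recurred with the same coordinates in another list. The genes, gene lists and rules were chosen with earlier results of these data known. Named genes were members of the fixed role lists, the first 8 by pileup percentile in 8 lists, the first 5 called in a single group in each direction, and the first 5 in each direction of length whose groups did not overlap. Genes annotated at several places were left out, and of LOC symbols the first 2 of each were to be named. NEAT1 and several LOC genes are not in the promoter table.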

Additional observations from a re-analysis of the deposited data

Results flagged for a closer look

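In 62 comparisons of 4 libraries of a group, 3 values stood far from the other 3 libraries by Dixon's test (critical value 0.829), and chance flags about 1 in 20 such groups. The length of end peaks relative to the rest of the list was 1.16 in DMSO replicate 2, against 1.21 to 1.22 in the other DMSO libraries. The ratio of lncRNA to coding summed length among genes in 8 lists was 0.829 in DMSO replicate 3, against 0.719 to 0.727. The median length of peaks at CpG-rich lncRNA starts was 660 bp in DMSO replicate 4, against 871.5 to 907 bp. A different library stood apart each time, and the part of library quality in these values was not tested.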

How the results depend on the processing

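The comparisons of lncRNA ends with coding ends, with tiles and between starts and opposite ends kept their direction and their call under every alternative run for them, as did the gap between CpG-rich and other starts. Their sizes changed most with the threshold of 5 on -log10 q, to 1.83 points for ends over tiles, 3.21 for starts over opposite ends and 20.0 for the CpG gap. The median length, the share of peaks and the length in excess of the rest kept their direction under every alternative, but their groups did not always stay apart. The excess was -61.5 bp with the q threshold, -20.25 bp with peaks of at least 300 bp (exact permutation p = 0.114 each), -9.25 bp with windows of 2.5 kb and -7.75 bp with 50% overlap, and the share was -0.0828 with 50% overlap. The median length was -263 bp with the q threshold. With lists of equal length these 3 passed the adjusted threshold, at -118 bp, -0.109 percentage points and -25 bp (adjusted exact permutation p = 0.0429).

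The treatment difference in the number of genes with an end peak turned to -159 with the threshold of 5 on -log10 q (exact permutation p = 0.0857). It was -176 with equal lists, -248 with peaks of at least 300 bp, -40.25 with a common smallest length of 135 bp and -96 in the even replicates. The difference in pileup percentile turned to -0.781 with the q threshold, -0.891 with windows of 500 bp and -1.75 with equal lists, and its distance from coding ends to -0.296 with windows of 500 bp. The length ratio to the rest was -0.0507 at the common smallest length and -0.0574 with windows of 500 bp (exact permutation p = 0.0286 each), and 0.00633 where at least 50% of a peak had to lie in the window. The ratio to coding length in 8 lists was -0.0329 with the q threshold, -0.0733 with windows of 2.5 kb, and, over the genes with end peaks in each of the 4 lists left, -0.132 in the odd and -0.0539 in the even replicates, where no test was made. Over the genes in all 8 lists the same differences were -0.123 and -0.0774. The treatment difference in the CpG gap was -3.40 with the q threshold, 5.16 with equal lists and 5.03 without LOC genes (the last 2 with an exact permutation p of 0.0857). The cause of these changes was not tested.

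Genes with end peaks in DMSO alone numbered 26 with equal lists, 29 with peaks of at least 300 bp, 23 at the common smallest length, 8 with windows of 2.5 kb and 6 with 50% overlap. Those in 3MB-PP1 alone numbered 0, 9 and 6 with the q threshold, equal lists and peaks of at least 300 bp. Genes with a lower summed length in every 3MB-PP1 list numbered 25 with the q threshold. Genes with a higher summed length numbered 1 with the q threshold, 1 with peaks of at least 300 bp, 4 with windows of 500 bp, 13 with windows of 2.5 kb, 4 beyond 20 kb and 5 with 50% overlap. Without LOC genes, which leaves fewer genes, the 4 counts were 5, 7, 53 and 4. With the odd replicates alone they were 169, 354, 735 and 111, and with the even ones 233, 178, 512 and 138, since fewer lists had to be in order. For genes called in a single group, shares over all genes were computed for the main setting, the q threshold and equal lists only. For shorter and longer summed length they were computed for the main setting only. The other counts therefore have no background beside them. For the named genes, the lists with an end peak changed at 81 and stayed the same at 27 with the q threshold. With peaks of at least 300 bp they changed at 58 and stayed at 50. With windows of 2.5 kb the numbers were 41 and 67, and with windows of 500 bp 37 and 71.

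Leaving out each library again left fewer lists, and no share over all genes was computed for the counts. These were 21 to 35 genes in DMSO alone, 24 to 55 in 3MB-PP1 alone, 162 to 279 shorter and 11 to 17 longer. The same range was -0.0301 to 0.464 for the pileup percentile, -0.117 to -0.0731 for the ratio to coding length, -0.0321 (without DMSO replicate 2, exact permutation p = 0.0286) to -0.0122 for the length ratio to the rest, 5.61 to 7.27 for the CpG gap and 51.8 to 372 for the number of genes.

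Samples with the same replicate number were not shown to be paired. Over the 1178 genes, deviations of same-numbered lists correlated at 0.0658, -0.0324, 0.0914 and 0.161. Lists of different numbers correlated at -0.150 to 0.0844, so whether a number marks a shared block stays unsettled. With the replicate number as a block the smallest possible p was 0.125, and the values were -0.100 for the ratio to coding length and 6.46 for the CpG gap (exact sign-flip permutation p = 0.125 for both). The share of peaks, the median length and the length in excess of the rest had the same block p of 0.125 by that test.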

Other observations

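Among the 14 lncRNA genes with end peaks in DMSO alone and the 21 with end peaks in 3MB-PP1 alone, the median pileup percentile of the best peak was 44.4 and 32.8. The 141 genes with a lower summed length in every 3MB-PP1 list had a median percentile of 83.5, and 81 of them had a strong peak (-log10 q no lower than 5) in some list. The 8 genes with a higher summed length had a median of 73.6. Both sets were drawn from the 1178 genes with end peaks in 8 lists. Of these, 521 (44.2%) had a strong end peak in some list, and their median best percentile was 76.3 to 83.2 per list.

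By class of name, end peaks were present in 8 lists at 29.6% of 54 small RNA hosts, 26.6% of 64 antisense genes, 23.1% of 347 genes with other names, 16.2% of 1939 LINC genes and 11.4% of 6569 LOC genes. Chromosome 12 had the highest share of genes with end peaks in 8 lists (24.7% of 433 genes), followed by chromosome 10 (20.5% of 443), and chromosome 16 the lowest (9.23% of 271). Genes over 500 kb from a coding gene had end peaks in 8 lists at 5.04% of 873 and in none at 52.8%.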
